A study of Mus musculus with 6 samples.

Results

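The genes that sense viral RNA and run the ISG15 pathway were described in 1G11-mock and 1G11-SOD3 cells. Of the 36785 genes and 55681 probes of the array, 10 genes with 14 probes were taken by name from the probe annotation, whatever their values. They were Ddx58, Ifih1, Dhx58, Mavs, Zbp1, Isg15, Usp18, Eif2ak2, Rsad2 and Mx1. 1G11 is a mouse microvascular endothelial cell line, labeled as strain C57BL/6NCrLBR. The 1G11-mock line served as control and the 1G11-SOD3 line overexpressed SOD3, the extracellular superoxide dismutase that removes superoxide in the matrix around cells. Before RNA was taken both lines spent 6 h in medium from cultures of N202.1A, a mouse mammary cancer line, so that every sample carried this exposure and none was untreated. RNA of 3 replicates per line was hybridized to 6 single-color Agilent arrays on 1 slide, and the study asked which transcripts differ in endothelium with high SOD3.

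Cells detect viral RNA in the cytosol with the helicases RIG-I (Ddx58) and MDA5 (Ifih1), which are modulated by LGP2 (Dhx58) and signal through the mitochondrial adaptor MAVS. The signal leads to type I interferon, which in turn raises the sensors themselves and a set of effectors. ISG15 is a ubiquitin-like protein that is attached to other proteins by UBA7, UBE2L6 and a ligase, and is taken off again by USP18, which also restrains the interferon receptor. PKR (Eif2ak2) stops translation on binding double-stranded RNA, viperin (Rsad2) makes a chain-terminating nucleotide, MX1 is a GTPase that blocks viruses, and ZBP1 senses Z-form nucleic acid and can start necroptosis. Endothelium answers interferon with these genes as most cells do.

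The short motif to which interferon-activated transcription factors bind, the interferon-stimulated response element, was looked up in the promoters of the 10 genes, since most of them are known as interferon targets. RefSeq promoters of the mouse assembly GRCm38.p6, from 250 bases before to 50 bases after the start site, were at hand for 6 of them. The letters GAAANNGAAA were searched on both strands and were present in 5 of the 6, and in 3.44% of all 32851 promoters. The stretches are shown 5′ to 3′ on the strand of the gene with the motif in capitals, and it reads TTTCNNTTTC where it lies on the other strand.
Isg15: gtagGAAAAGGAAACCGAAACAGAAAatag
Rsad2: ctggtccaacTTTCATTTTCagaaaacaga
Ddx58: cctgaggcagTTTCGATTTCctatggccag
Ifih1: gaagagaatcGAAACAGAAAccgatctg
Eif2ak2: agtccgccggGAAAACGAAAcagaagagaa
The Isg15 stretch (chr4:156200871-156200900, gene on the minus strand) held 3 overlapping matches and began them 78 bases before the start site. In Rsad2 (chr12:26456553-26456582, minus strand) the match began 120 bases before it. In Ddx58 (chr4:40239804-40239833), Ifih1 (chr2:62646206-62646233) and Eif2ak2 (chr17:78882535-78882564), all on the minus strand, it began at bases 3, 33 and 19 of the transcript. Mavs had no match in its window. The NF-κB motif, GGG and TTTCC with 2 free bases between them, searched on both strands because the study is concerned with that pathway, was in none of the 6 windows and in 1.63% of all promoters. A match is a run of letters and was not tested as a binding site, and its absence from a window says nothing about the factor.

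Values are log2 intensities after background correction and quantile normalization. A difference is that of the 1G11-SOD3 mean minus the 1G11-mock mean, with a limma test adjusted by Benjamini-Hochberg over all 55681 probes. It was called at more than 2-fold with an adjusted p under 0.05. Where a gene had more than 1 probe, its brightest probe, by the mean of the 6 arrays, stood for it. Levels of different probes are not comparable with one another, and in bulk RNA fewer cells that express a gene and less RNA per cell cannot be told apart.

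Between 34.2% and 43.8% of the 59305 non-control spots were well above background per array, and none was saturated. The 43.8% was that of 1G11-SOD3 replicate 3, and the other arrays had 34.2% to 38.5%. The lowest log2 signal of a probe well above background was 6.65 on that array and 7.74 to 8.00 on the others. Spots in the middle of the rows and columns (rows 129 to 256, columns 55 to 109) differed in brightness between the lines, and 11.6% of probes there were called higher in 1G11-SOD3 and 0.0487% lower, against 0.646% and 1.18% elsewhere. Spots near 1 edge differed the other way, and blocks of spots that start at column 1 had median log2 fold changes from -0.722 to -0.307. The slide held the 1G11-mock samples in its row 2 and the 1G11-SOD3 samples in its row 1, and line and row cannot be told apart. Differences are therefore also given with a position adjustment, in which a smooth surface over the spots was taken off each array. The Sod3 probe, itself in the middle, read 13.61, 12.66 and 9.86 in 1G11-mock and 16.37, 16.29 and 16.27 in 1G11-SOD3, a difference of 4.27 (adjusted p = 0.00791 by limma), or 2.75 with the position adjustment (adjusted p = 0.0127). Of the 9 endothelial markers, 6 were well above background on at least 1 array, Kdr between 12.32 and 12.98 among them, whereas Cdh5, Tek and Tie1 were so on none. One array, 1G11-SOD3 replicate 3, stood apart from the others of its line in interferon-induced genes, and the calls of the 10 genes are given with and without it where it changes them. The replicates are described as biological ones, and 3 per line limit the precision of each difference.

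**Figure D1:**
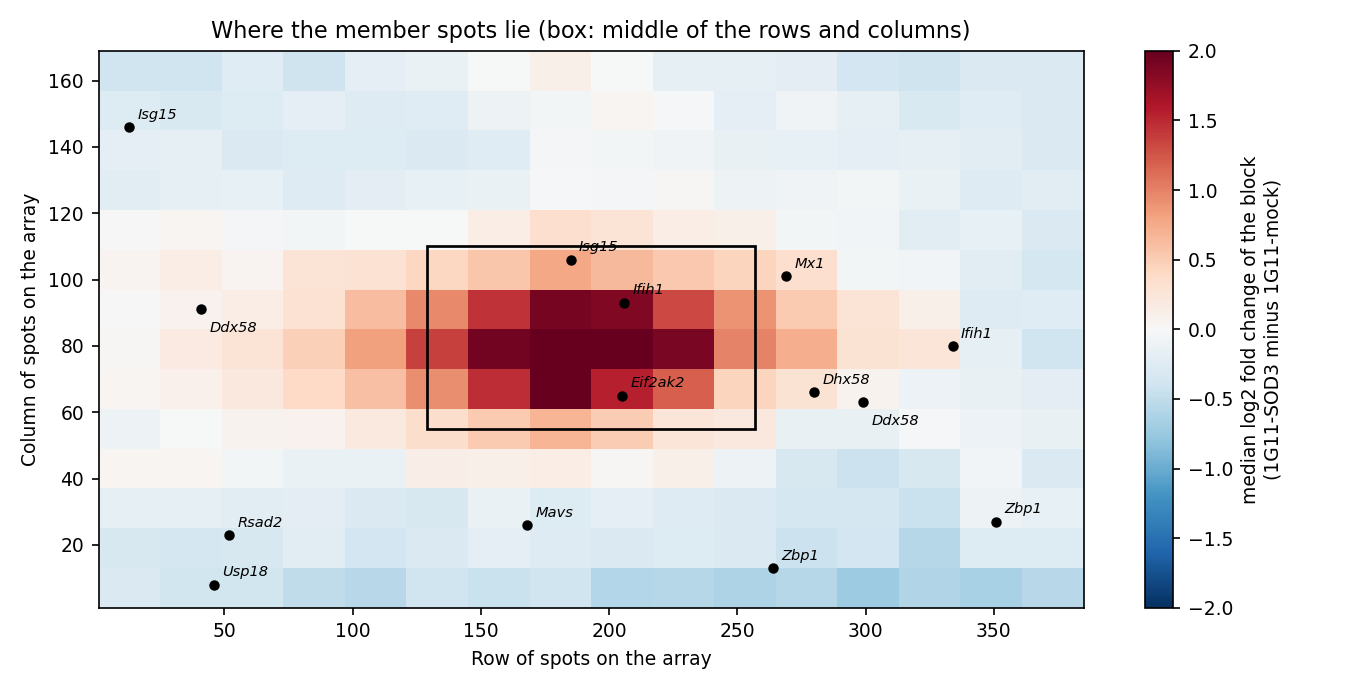
Place of the 14 member spots (black points) on the array, with the row of spots on the x axis and the column on the y axis. Color gives the median log2 fold change of each block of spots, and the black box marks the middle, where blocks reach past 2 and which holds 1 spot each of Isg15, Ifih1 and Eif2ak2.

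Of the 10 genes, Usp18 and Mx1 were lower and Eif2ak2 was higher in 1G11-SOD3 cells by their brightest probe. By the same rule 1.27% of all genes were called lower and 2.13% higher, and 3.05% and 2.87% of the genes well above background on all arrays. With the position adjustment Usp18, Mx1 and Ifih1 were called lower and none higher, where 2.96% of all genes were called lower and 1.41% higher. When 1G11-SOD3 replicate 3 was also left out, Usp18 and Mx1 were the 2 genes called. Without the position adjustment, the lowest 1G11-mock array exceeded the highest 1G11-SOD3 array in 6 of the 10. This pattern was found in 11.1% of all genes and in 19.2% of the probes well above background on all arrays. In Eif2ak2 the order was the opposite (10.7% of all genes). Rsad2 was among the 6 and overlapped once the adjustment was made. The median difference over the 10 was -0.86, beside -0.04 over all genes. With the position adjustment these medians were -0.58 and 0.05. Zbp1 is in the medians of the 10 although neither of its probes, read between 6.58 and 7.91, was well above background on any array. No level can be set for it.

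**Figure D2:**
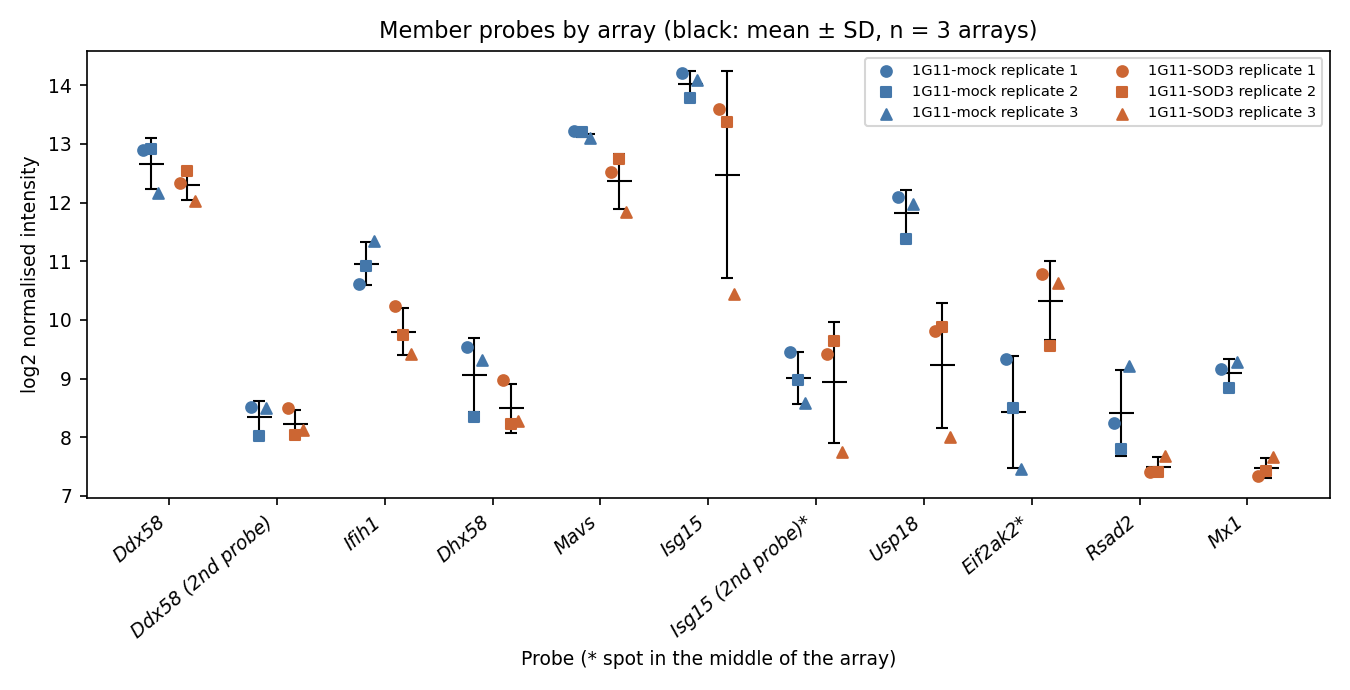
Log2 normalized intensity (y axis) of the 11 member probes that were well above background on at least 1 array, with 1 point per array and the mean ± SD of 3 arrays in black. Usp18 and Mx1 do not overlap between the lines, and 1G11-SOD3 replicate 3 (orange triangles) lies far below the other 1G11-SOD3 arrays for both Isg15 probes and for Usp18.

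Among the sensors, Ifih1 (MDA5) came closest to the threshold. Its probe read 10.61, 10.92 and 11.34 in the 1G11-mock arrays and 10.23, 9.75 and 9.42 in the 1G11-SOD3 arrays. The lines did not overlap, though the nearest arrays stood close together. The difference was -1.16 ± 0.28 (SE, n = 3 per line), or 2.23-fold, with a 95% confidence interval of -1.77 to -0.55. It fell just short of the threshold at an adjusted p of 0.0505 by limma and passed it with the position adjustment (-1.21, adjusted p = 0.0321 by limma). With that adjustment it was not called without 1G11-SOD3 replicate 3 (-0.95, adjusted p = 0.0949 by limma). It was called in 6 of 14 alternative settings and, of the 6 ways of leaving out 1 array, only without 1G11-mock replicate 1 (-1.33, adjusted p = 0.0426 by limma). The second Ifih1 probe lay in the middle and was well above background on no array.

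Ddx58 (RIG-I) did not pass the test. It read 12.90, 12.92 and 12.16 in 1G11-mock and 12.33, 12.54 and 12.03 in 1G11-SOD3, with overlap between the lines. The difference was -0.36 with an interval of -0.95 to 0.23 (adjusted p = 0.609 by limma), whose lower end is close to a 2-fold decrease. A second, dim Ddx58 probe gave -0.13. Its sign turned to 0.02 with the position adjustment. Dhx58 (LGP2), the regulator without a signaling domain, read 9.53, 8.35 and 9.31 against 8.97, 8.23 and 8.27. These values overlapped, and the difference of -0.57 did not pass (interval -1.30 to 0.15, adjusted p = 0.482 by limma).

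The adaptor Mavs read 13.22, 13.21 and 13.10 in 1G11-mock and 12.52, 12.74 and 11.84 in 1G11-SOD3. The lines did not overlap, and the 1G11-mock arrays had an SD of 0.06. The difference of -0.81 (interval -1.39 to -0.23) did not pass after adjustment over all probes (adjusted p = 0.154 by limma), nor with the position adjustment (-0.53, adjusted p = 0.237).

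In the ISG15 system, Usp18, which removes ISG15 from proteins and dampens interferon signaling, was lower in 1G11-SOD3 cells. It read 12.10, 11.37 and 11.98 in 1G11-mock and 9.81, 9.88 and 8.00 in 1G11-SOD3. Every 1G11-SOD3 array lay more than 1 log2 unit below every 1G11-mock array. The difference was -2.59 ± 0.443 (SE, n = 3 per line), or 6.00-fold lower, with an interval of -3.56 to -1.61 and an adjusted p of 0.00966 by limma. With the position adjustment it was -2.13, or 4.38-fold (adjusted p = 0.0319 by limma), and -1.49 when 1G11-SOD3 replicate 3 was left out as well (adjusted p = 0.0431). Usp18 was called in all 14 alternative settings and with each of the 6 arrays left out in turn, where the difference ran from -2.91 to -1.97. Its spot lay near the edge of the array (row 46, column 8), in a block of spots with a median difference of -0.378.

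Isg15 itself did not pass the test, although each 1G11-SOD3 array read below each 1G11-mock array. Its main probe read 14.20, 13.78 and 14.09 in 1G11-mock and 13.60, 13.38 and 10.44 in 1G11-SOD3. Replicates 1 and 2 of 1G11-SOD3 lay just below the control arrays, and replicate 3 stood at -3.05 from their mean. The difference was -1.55 ± 0.646 (SE, n = 3 per line), with an interval of -2.97 to -0.13 and an adjusted p of 0.298 by limma. Without 1G11-SOD3 replicate 3 it was -0.53 (adjusted p = 0.403 by limma). With the position adjustment it was -1.30, and -0.38 when that array was left out as well.

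The same array was low on the other Isg15 probe too, which lies in the middle of the array and covers another part of the transcript. That probe read 9.46, 8.98 and 8.58 in 1G11-mock and 9.42, 9.64 and 7.75 in 1G11-SOD3. The lines overlapped and the difference was -0.07 (interval -1.03 to 0.89). It was -0.51 with the position adjustment (adjusted p = 0.507 by limma). The unadjusted value turned to 0.52 without 1G11-SOD3 replicate 3 and to 0.16 without 1G11-mock replicate 1. The scanner intensities before any normalization were 14800, 12300 and 2230 for the main probe on the 3 1G11-SOD3 arrays, and 841, 940 and 383 for the second. The drop on replicate 3 was thus present in the scanned spots of both probes, where their local backgrounds were 96 and 94, against 92 to 95 and 79 to 81 on the other 1G11-SOD3 arrays.

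Of the 4 genes of the conjugation list, which attach ISG15, Uba7 was the 1 that was called. By the same rule 1.27% of all genes were called lower. Uba7, the activating enzyme, read 12.05, 11.39 and 11.67 in 1G11-mock and 10.62, 10.54 and 10.65 in 1G11-SOD3, and it fell by 1.10 on the log2 scale (SE 0.237, adjusted p = 0.03 by limma). It was as low on 1G11-SOD3 replicates 1 and 2 as on replicate 3, and it gave -1.12 with the position adjustment. The conjugating enzyme Ube2l6 had a difference of -0.09 (adjusted p = 0.919 by limma). The ligases Herc6 and Arih1 had -0.15 and -0.34, and Herc6 was well above background on 1 array in all.

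**Figure D3:**
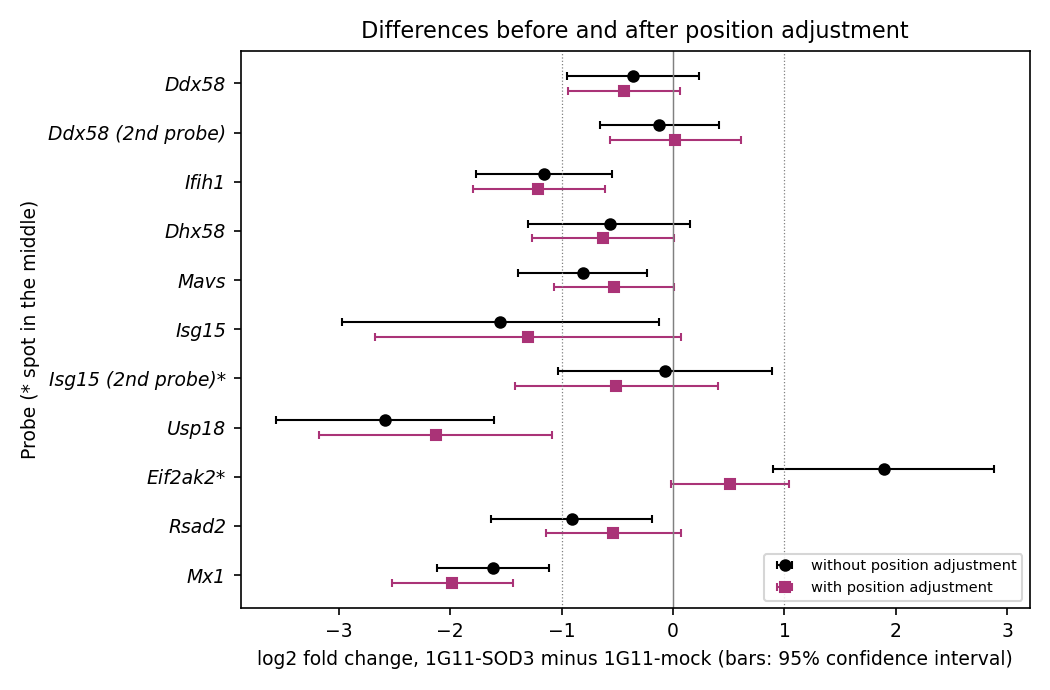
Log2 fold change of each member probe well above background on at least 1 array, 1G11-SOD3 minus 1G11-mock (x axis), with its 95% confidence interval. Black circles are without and purple squares with the position adjustment. Usp18, Mx1, Ifih1 and the main Isg15 probe stay past the dotted 2-fold line either way. Of these only Usp18 and Mx1 keep their whole interval past it. Eif2ak2, in the middle of the array, goes from 1.89 to 0.51.

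Of the effectors, Mx1 was lower in 1G11-SOD3 cells. The probe read 9.17, 8.83 and 9.28 in 1G11-mock and 7.34, 7.43 and 7.67 in 1G11-SOD3. All control arrays were well above background and no 1G11-SOD3 array was. The measured difference was -1.62 (interval -2.12 to -1.11, adjusted p = 0.00354 by limma). A 2nd figure set the 1G11-mock mean against the lowest signal well above background on each 1G11-SOD3 array, or the probe's own where higher. It gave 2.52-fold, or 1.33 on the log2 scale. That figure leaves out the spread among arrays and is no minimum, since the interval reaches -1.11. Mx1 was called in all 14 alternative settings and without each array in turn. In contrast to Isg15 and Usp18, 1G11-SOD3 replicate 3 gave the highest of the 3 readings, all of them in the range of the background.

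Rsad2 (viperin) read 8.24, 7.79 and 9.21 in 1G11-mock and 7.41, 7.41 and 7.68 in 1G11-SOD3. It was well above background on 1 1G11-mock array and on no 1G11-SOD3 array, and the test did not pass (adjusted p = 0.215 by limma). The lines did not overlap, but they did after the position adjustment. With so few arrays well above background no fold is given. Cmpk2, a nucleotide kinase gene next to Rsad2 in the RefSeq gene order and a member of the list of other interferon-induced genes, was called lower at -1.21 ± 0.254 (SE, adjusted p = 0.0267 by limma), with 1 of the 3 1G11-SOD3 arrays well above background.

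Eif2ak2 (PKR) was the 1 gene of the 10 that was called higher, and its spot lay in the middle of the array. It read 9.34, 8.50 and 7.45 in 1G11-mock and 10.79, 9.55 and 10.63 in 1G11-SOD3. The difference was 1.89 ± 0.451 (SE, n = 3 per line), or 3.72-fold (adjusted p = 0.0476 by limma). With the position adjustment the difference was 0.51 (interval -0.02 to 1.04, adjusted p = 0.25 by limma). It was called in 8 of 13 alternative settings. It lost its call without 1G11-mock replicate 2 (1.93, adjusted p = 0.144 by limma), without 1G11-mock replicate 3 (1.40, adjusted p = 0.129), without 1G11-SOD3 replicate 1 (1.66, adjusted p = 0.173) and without 1G11-SOD3 replicate 3 (1.74, adjusted p = 0.18).

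The wider pathway was read on 63 further genes in 6 lists, of which 9 were called lower and 2 higher. Over all genes 1.27% were called lower and 2.13% higher. The median over the 63 was -0.15, beside -0.04 over all genes. With the position adjustment 8 were called lower and 1 higher, where 2.96% and 1.41% of all genes were. The medians were then -0.21 and 0.05. The 9 lower ones had spots outside the middle, and both higher ones had spots inside it. Among the lower ones Cxcl10 and Tyk2 lay at columns 3 and 2, near the edge where spots read lower in 1G11-SOD3. The count of 11 calls became smaller when any 1 array was left out. It was 4 without 1G11-SOD3 replicate 3, with 2 lower, 4 without replicate 2 and 8 without replicate 1 of that line. Without 1G11-mock replicates 1, 2 and 3 it was 6, 7 and 6. Over all genes the 1252 calls became 646, 798 and 604 without 1G11-SOD3 replicates 3, 2 and 1. They became 1342, 621 and 899 without 1G11-mock replicates 1, 2 and 3. Mx2 and Ifi44 among the lower genes and both higher ones were called with each of the 6 arrays left out in turn. Irf7, Parp14 and Cxcl10 were called in 2 of these 6 cases, and Uba7, Tyk2, Ifit1 and Cmpk2 in 1, none of them without 1G11-SOD3 replicate 2 or without 1G11-SOD3 replicate 3.

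Of the 18 cofactors and signaling proteins around the RIG-I-like receptors, Irf7 was called lower, where 1.27% of all genes were. This transcription factor, which drives interferon genes, read 10.67, 10.39 and 10.02 in 1G11-mock and 9.40, 9.04 and 8.08 in 1G11-SOD3. The lines did not overlap, and Irf7 fell by 1.52 on the log2 scale (SE 0.333, adjusted p = 0.0325 by limma). Rnf125, a ligase known to lower RIG-I, was called higher with the position adjustment alone (1.03, adjusted p = 0.0206 by limma). Without the adjustment its difference was 0.53 and did not pass (adjusted p = 0.319 by limma). It was well above background on no 1G11-mock array, so no fold is given. The median of this list was -0.18.

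None of the 12 enzymes and partners that deal with double-stranded RNA and none of the 5 genes of DNA sensing was called, with medians of -0.05 in both lists. Of these, 3 and 1 genes were well above background on no array. Among the 9 interferons, receptors and signal transducers, Tyk2, a kinase bound to the interferon receptor, was called lower at -1.18 ± 0.278 (SE, adjusted p = 0.045 by limma). With the position adjustment it was -0.86 and was not called (adjusted p = 0.098). Ifnar1 and Ifnar2, the chains of the receptor, were called higher at 2.83 and 3.27, both from spots in the middle. They were at 0.60 (adjusted p = 0.177 by limma) and 1.09 (adjusted p = 0.0504) after the adjustment. The genes for the ligand gave no level to compare, since the Ifnb1 probe, between 6.71 and 6.98, was well above background on no array.

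The list of 15 other interferon-induced genes held 6 called lower and none higher, with a median of -1.46. Over all genes 1.27% were called lower and 2.13% higher, with a median of -0.04. Mx2, a relative of Mx1, read 10.42, 10.28 and 11.14 in 1G11-mock and 8.39, 8.42 and 7.73 in 1G11-SOD3, and it fell by 2.43 on the log2 scale (SE 0.293, adjusted p = 0.00146 by limma). Ifi44 fell by 1.98, Parp14, an ADP-ribosyltransferase, by 1.75, and Ifit1, which binds viral RNA, by 1.48 (adjusted p from 0.00267 to 0.0465 by limma). Cxcl10, a chemokine for T cells, fell by 2.07 and was at -1.45 (adjusted p = 0.0752 by limma) with the position adjustment. Ifit3 overlapped at -0.13 and was called only with that adjustment (-1.21, adjusted p = 0.0309). A RefSeq promoter was at hand for 11 genes of this list, of which 6 had the response element, and for 44 genes of the other lists, of which 5 had it.

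**Figure D4:**
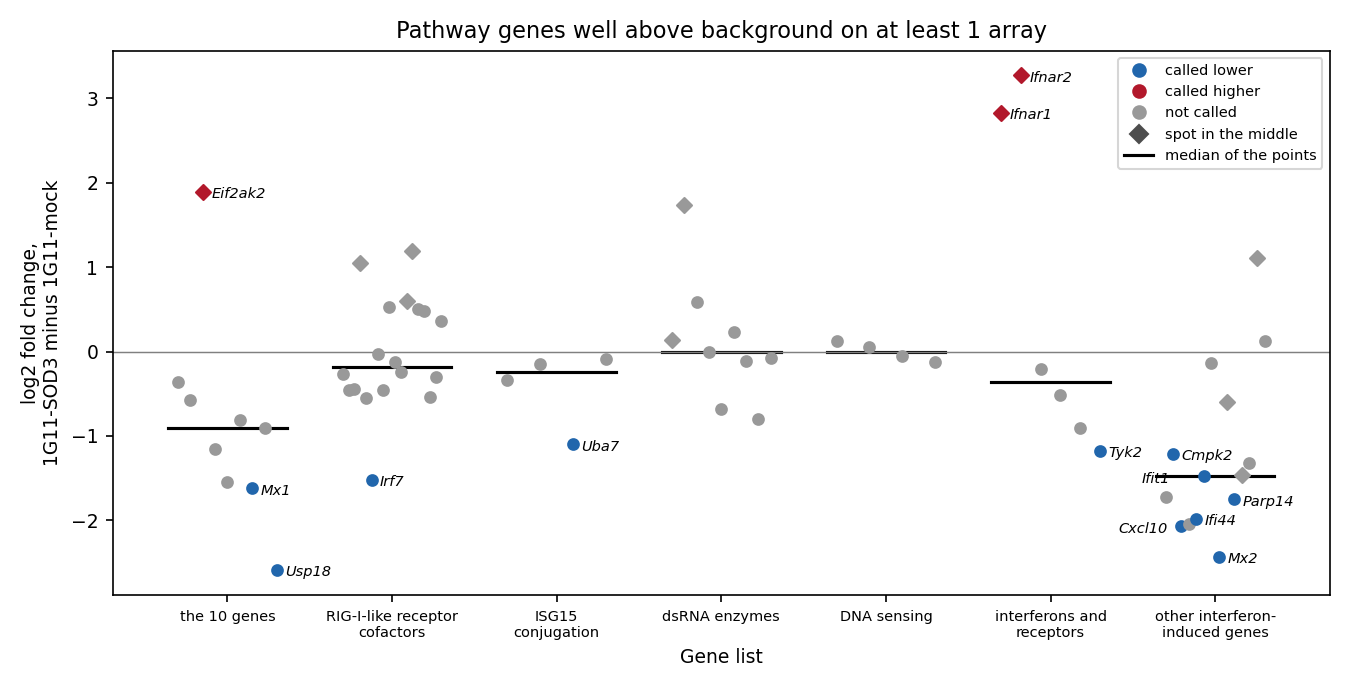
Log2 fold change, 1G11-SOD3 minus 1G11-mock (y axis), of each gene that was well above background on at least 1 array, by list. Blue marks genes called lower, red genes called higher, gray the rest, diamonds spots in the middle of the array and bars the median of the points shown. The right column holds 6 genes called lower, and the 3 genes called higher are all diamonds.

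The third 1G11-SOD3 array stood apart from the other 1G11-SOD3 arrays in the interferon-induced genes, a pattern seen in the values and given without a test. Of the member probes, 7 were well above background on all 6 arrays, both Isg15 probes among them. Replicate 3 was the lowest of the 3 in 6 of these. It lay more than 1 log2 unit below both others in 3, which were both Isg15 probes and Usp18. Over all 16279 probes well above background on all arrays these shares were 41.9% and 1.22%. The distance of replicate 3 from the mean of replicates 1 and 2 had a median of -0.78 over the 7 probes and -0.03 over all. The position adjustment left the median for the 7 probes at -0.77. Members left out because fewer arrays were well above background did not share this. The distance was 0.46 for Eif2ak2, 0.27 for Rsad2, 0.28 for Mx1 and -0.14 for the second Ddx58 probe.

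In the list of other interferon-induced genes replicate 3 was the lowest in 10 of 10 probes, with a median distance of -0.95. It lay more than 1 unit below both others for Ifi27l2a, Bst2, Rtp4 and Oasl2, which are named here after their values were seen. Ifi27l2a read 17.53, 16.49 and 16.90 in 1G11-mock and 15.67, 16.43 and 12.71 in 1G11-SOD3. Bst2, which tethers virus particles to the cell, read 14.78 and 14.44 on replicates 1 and 2 and 12.13 on replicate 3. Neither gene passed the test across the lines (adjusted p of 0.21 and 0.137 by limma). The other lists had medians between -0.73, for 4 genes of DNA sensing, and 0.17.

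**Figure D5:**
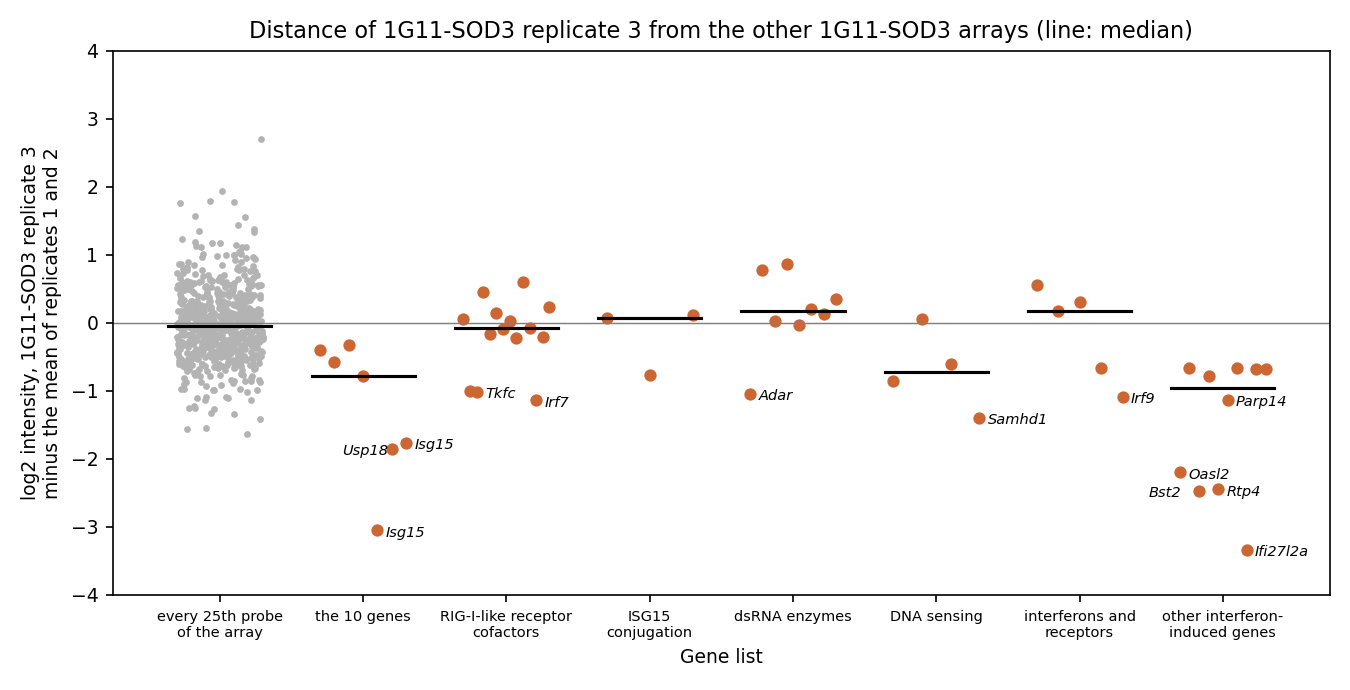
Distance of 1G11-SOD3 replicate 3 from the mean of 1G11-SOD3 replicates 1 and 2 (y axis, log2 intensity) for probes well above background on all arrays, by list, with every 25th such probe of the array in gray. Bars are medians, and the members and other interferon-induced genes lie at -0.78 and -0.95.

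Markers of other cell types were read beside these differences. Of 5 mural and fibroblast markers all were well above background in 1G11-SOD3, and Pdgfrb, Acta2, Col1a1 and Lum were called higher. Acta2 and Col1a1 differed by 3.01 and 3.10. Pdgfrb was well above background on 1 1G11-mock array and Lum on none. Lum differed by 1.89 (SE 0.409, adjusted p = 0.0312 by limma). With its 1G11-mock readings raised to the lowest signal well above background it was 2.55-fold higher, a figure without the spread among arrays. The summed normalized intensity of the list, given as a description, ran from 19673 to 34149 in 1G11-mock and was 47303, 39779 and 174241 in 1G11-SOD3. Most of it came from Dcn in 1G11-mock and on 1G11-SOD3 replicate 3, and without Dcn the sum ran from 2840 to 6057 in 1G11-mock and was 35581, 27520 and 37010 in 1G11-SOD3. Dcn, the fifth, read 13.52 and 13.58 on 1G11-SOD3 replicates 1 and 2 and 17.07 on replicate 3, the array with the low Isg15 values, against 14.04 to 14.78 in 1G11-mock. Of the endothelial markers Vwf was called lower at -1.65 (adjusted p = 0.00345 by limma). The sum of that list ran from 21520 to 29634 in 1G11-mock and from 14164 to 17489 in 1G11-SOD3. Without Eng, the brightest, it ran from 9792 to 11800 and from 8003 to 9307. Eng differed by -1.05 and was not called (adjusted p = 0.0848 by limma). Of 5 leukocyte markers Ptprc, Cd68 and Adgre1 were well above background on no array, and Cd14 and Itgam, which were, gave -0.38 and -0.00, with list sums from 19414 to 24424 and from 19271 to 25066. Of 5 epithelial markers none was called, Epcam was well above background on no array and Krt19 read between 15.41 and 16.76, with list sums from 67050 to 111602 and from 44368 to 83959. Without Krt19, which carried these sums, they were 711 to 876 and 687 to 846. Their part in the differences of the interferon-induced genes was not tested.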

How the data were processed

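Total RNA of 3 1G11-mock and 3 1G11-SOD3 samples was labeled with Cy3 and hybridized to Agilent SurePrint Mouse G3 arrays. The authors deposited, for each array, spot and background intensity values from Agilent Feature Extraction 10.7.3.1, not normalized between arrays, and a table of log2 values, background corrected and quantile normalized (median of 7.52 in each column). Values here came from the mean spot intensities, which the files give to 3 digits, and the table was an alternative. Normexp with an offset of 50, log2 transformation, quantile normalization without control spots, and lmFit and eBayes were run in limma 3.58.1 (R 4.3.3), after the methods of the study. Outlier spots were left out and spots of a probe averaged. The build of the array's probe positions is not given in the sources used here, so none is printed, and promoters came from RefSeq on GRCm38.p6. For the position adjustment a kernel surface of 60 pixels was used, chosen from 6 candidates. Copies of repeated probes that were kept out of the fit spread least under it. The SD of the difference among the copies of a probe had a median of 0.163 over 192 probes, against 0.438 without the surface. Figures used Python 3.11.15, pandas 2.3.3, numpy 2.4.6 and matplotlib 3.10.9.

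The members, lists, markers and settings were chosen with earlier results of these data known. The text names every member, every listed gene called with or without the position adjustment and every ISG15 conjugation gene. Samples of the same replicate number deviated together (correlations of 0.164, 0.103 and 0.156 over 16279 probes, and -0.167 to 0.055 between different numbers), a pairing read from the data, and the replicate number was tried as a block. Other alternatives were the processed signal, median pixels, an offset of 16, uncorrected background, 75th percentile scaling, cyclic loess, control or outlier spots kept, dim probes or the middle left out, a variance trend, the mean of all probes, and each array left out. The position adjustment without 1G11-SOD3 replicate 3 was added after its values were seen. The procedure was tested on simulated data. The smallest exact permutation p that 3 against 3 arrays can give is 0.1 (2-sided).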

Additional observations from a re-analysis of the deposited data

How the results depend on the processing

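Of the 10 genes 3 were called, 1 higher and 2 lower. Scaling to the 75th percentile gave 5 (1 higher, 4 lower), and leaving out 1 array at a time gave 2 to 4, also over the member probes. The 11 calls of the pathway lists were 6 without background correction, 6 with an offset of 16, 6 with cyclic loess, 7 without the middle spots and 4 to 8 with 1 array left out, and 5 with the position adjustment without 1G11-SOD3 replicate 3. Over all genes the 1252 calls (784 higher, 468 lower) became 6907 (910 and 5997) with the processed signal, 1916 (1179 and 737) with 75th percentile scaling, 697 (259 and 438) without the middle, 759 (270 and 489) with the position adjustment without 1G11-SOD3 replicate 3, and 604 to 1342 with 1 array left out. The position adjustment turned the split to 519 higher and 1088 lower. The cause of these shifts was not tested. The processed signal and the 75th percentile moved the median of all genes to -0.45 and -0.31 from -0.04, and under them Usp18 was at -2.67 and -2.59.

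With the replicate number as a block the pairing left the members at 3 calls, again Usp18, Mx1 and Eif2ak2, and gave 15 in the pathway lists and 1706 over all genes. It changed no call of a member.

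Signs turned for dim or middle probes. The second Ddx58 probe was at 0.02 with the position adjustment and 0.16 when 1G11-SOD3 replicate 3 was also left out. The second Isg15 probe was at 0.01 with median pixels and in the deposited table, -0.42 to 0.52 with 1 array left out and 0.04 without 1G11-SOD3 replicate 3 after the position adjustment. Rsad2 was called lower with the processed signal (-2.10) and 75th percentile scaling (-1.21). Of the values for single probes under the alternatives, 202 kept direction and side of the threshold, 9 newly passed it, 10 no longer passed it and 7 turned sign. Signal over background limits Rsad2, Mx1 and Zbp1, and 54.3% of all probes were never well above it.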
